A study of Mus musculus with 24 samples.

Results

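The genes described here are 9 markers of neuroectoderm and of neurons, namely Sox1, Pax6, Nes, Zic1, Pax3, Neurog2, Neurod1, Tubb3 and Map2. They were chosen by name among the 19938 genes that had a probe set with a single gene symbol, and each of the 9 had exactly 1 such probe set. Levels are log2 values from 24 Affymetrix Mouse Gene ST arrays of total RNA, and a level of 1 probe set is not set against that of another. Day 0 stands for mouse ESCs (embryonic stem cells), and days 3 and 7 for embryoid bodies (EBs), the aggregates in which ESCs differentiate. Cells without Eed (knockout, KO) came from E14 and J1, and the wild type (WT) was represented by J1 and V6.5. Each line and genotype was measured with 2 arrays a day, which gave 4 arrays per genotype and day. J1 was the only line present in both genotypes, so for E14 and V6.5 genotype and line cannot be told apart. All ESCs were expanded with fetal calf serum and LIF-conditioned medium on embryonic fibroblasts (MEFs) inactivated with mitomycin C. EBs of both genotypes were started from ESCs depleted of MEFs, in hanging drops with serum and no LIF. Which part of Eed is missing, and how many clones stand behind each KO line, is not stated in the labels.

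Eed encodes an essential component of Polycomb repressive complex 2, which methylates histone H3 at promoters of developmental genes and holds many of them silent in ESCs. Neuroectoderm is the part of the ectoderm that forms the neural plate, and its early progenitors are marked by transcription factors such as SOX1 and PAX6 and by the intermediate filament nestin. ZIC1 and PAX3 mark the dorsal neural tube and the neural crest border, proneural factors such as neurogenin 2 and NEUROD1 then drive neuronal differentiation, and beta III tubulin and MAP2 build the microtubule skeleton of neurons. Several of these genes are also used elsewhere: Pax3 in muscle progenitors, Pax6 and Neurod1 in the endocrine pancreas.

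The Eed probe set, which checks the genotype labels, lay at 5.76 to 7.48 in KO (12 arrays) and at 9.37 to 11.02 in WT (12 arrays). A list of 6 ESC markers averaged 11.62 to 12.23 in the 8 arrays of day 0, and on day 7 it averaged 7.61 to 8.59 in WT and 11.43 to 11.89 in KO, although all samples carry the label embryonic stem cells. The 2 arrays of WT J1 on day 7 stood apart from each other, with 1256 genes (6.30%) at least 2-fold apart and r = 0.962 across genes, against 21 to 163 genes and r of at least 0.990 in the other 11 pairs of repeat arrays. Of the 9 genes, 5 were at least 2-fold higher in replicate 1 of that pair than in replicate 2, and all 9 read above the other 3 WT arrays of day 7, as did 34.3% of all genes. The calls of day 7 among the 9 genes and the counts of gene lists on that day are given with and without that array. Whether repeat arrays hold RNA of separate cultures is not said in the labels, so the p-values speak only of how far these samples spread, and that spread may be technical. In bulk samples such as these, fewer cells of a type and less RNA per cell cannot be told apart.

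Zic1, a zinc finger transcription factor of the dorsal neural tube, was the only 1 of the 9 genes called between KO and WT on any day in the model of all 24 arrays. A gene was called at a limma adjusted p under 0.05 over all genes and a difference of at least 1 on the log2 scale, which is 2-fold. On day 0 E14 KO read 7.01 and 7.09, J1 KO 7.27 and 7.19, J1 WT 6.39 and 6.57, and V6.5 WT 6.17 and 6.57. By day 3 E14 KO had reached 8.36 and 8.35 and J1 KO 8.88 and 8.68, while J1 WT read 6.46 and 6.60 and V6.5 WT 6.62 and 6.67. KO and WT arrays thus did not overlap on either day, and the gap was wider on day 3, when the KO values lay above those of day 0 and the WT values lay within the range 6.17 to 6.67 on both days. On day 7 E14 KO read 8.21 and 8.99, and J1 KO 9.05 and 8.74. WT V6.5 read 6.72 and 6.88 on that day, and WT J1 read 9.88 in replicate 1 and 6.09 in replicate 2. The highest and the lowest Zic1 value of all 24 arrays therefore came from the same line, genotype and day.

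KO exceeded WT by 0.71 (SE 0.52, limma adjusted p = 0.66) on day 0, by 1.98 (SE 0.52, adjusted p = 0.044) on day 3 and by 1.35 (SE 0.52, adjusted p = 0.082, 95% interval 0.28 to 2.43) on day 7, all on the log2 scale. On day 3 Zic1 was the 1 gene called of the 9, beside 0.757% of all genes. The model shares 1 estimate of the spread over all days, so the disagreement within WT J1 on day 7 enters the SE of every day. When replicate 1 of that pair was left out, the differences were 0.71 (SE 0.19, adjusted p = 0.043, under 2-fold), 1.98 (SE 0.19, adjusted p = 7.3e-07) and 2.20 (SE 0.20, adjusted p = 3.1e-08). Without replicate 2 in its place the day 7 difference was 0.86 (adjusted p = 0.27). Leaving out any single array of day 3 gave an adjusted p of 0.060 to 0.0995 with a difference of 1.90 to 2.05. In KO, Zic1 rose by 1.61 (SE 0.44, adjusted p = 0.013) from day 0 to day 7, and like Pax3 it read above all day 0 arrays there (2 of the 9 genes, beside 9.66% of all genes).

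Pax3 and Pax6 encode paired box transcription factors, the first of the dorsal neural tube and neural crest, the second of neural progenitors and the eye. On day 0 Pax3 in E14 KO was at 6.35 and 6.42, in J1 KO at 6.37 and 5.90, in J1 WT at 6.25 and 6.19, and in V6.5 WT at 5.97 and 6.23. On day 3 E14 KO was at 6.95 and 6.97, J1 KO at 6.95 and 6.64, J1 WT at 6.12 and 6.40, and V6.5 WT at 6.14 and 6.13. The genotypes overlapped on day 0 and no longer did on day 3. On day 7 the level was 7.22 and 7.26 (E14 KO), 6.95 and 6.96 (J1 KO) or 6.02 and 6.65 (V6.5 WT). In J1 WT they were 8.49 and 6.13, so that replicate 1 again exceeded every KO array. The KO minus WT difference of Pax3 was 0.10, 0.68 and 0.28 on days 0, 3 and 7, with adjusted p of 0.44 or more. Leaving out replicate 1 of WT J1 gave 0.68 (SE 0.15, adjusted p = 0.015) on day 3 and 0.83 (SE 0.16, adjusted p = 0.00065) on day 7, both under 2-fold. Without replicate 2 the day 7 difference was -0.01 (adjusted p = 0.99), and without the V6.5 arrays it was -0.21 (adjusted p = 0.76), so its sign on that day rests on which WT arrays are kept.

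Pax6 overlapped between the genotypes on day 0, when E14 KO read 7.14 and 7.27, J1 KO 7.63 and 7.50, J1 WT 7.64 and 7.31, and V6.5 WT 6.71 and 6.95. On day 3 E14 KO (7.87 and 7.82) and J1 KO (7.84 and 8.34) lay above J1 WT (6.60 and 7.49) and V6.5 WT (6.91 and 6.94). The KO values of day 3 also lay above all KO values of day 0, as they did in Zic1 and Pax3 (3 of the 9 genes, beside 7.07% of all genes). On day 7 E14 KO read 6.78 and 7.56, J1 KO 8.08 and 7.87, V6.5 WT 6.41 and 6.10, and J1 WT 10.02 and 6.09. The gap of 3.94 between these last arrays was the largest of any of the 9 genes in any pair of repeat arrays. KO exceeded WT by 0.99 (SE 0.59, adjusted p = 0.55) on day 3 and by 0.42 (SE 0.59, adjusted p = 0.70, 95% interval -0.81 to 1.65) on day 7. With replicate 1 of WT J1 left out the differences were 0.99 (SE 0.25, adjusted p = 0.032, under 2-fold) and 1.36 (SE 0.26, adjusted p = 0.00066). Without replicate 2 the day 7 difference was -0.04, so the sign of the Pax6 difference on day 7 rests on which array of WT J1 is kept.

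**Figure D1:**
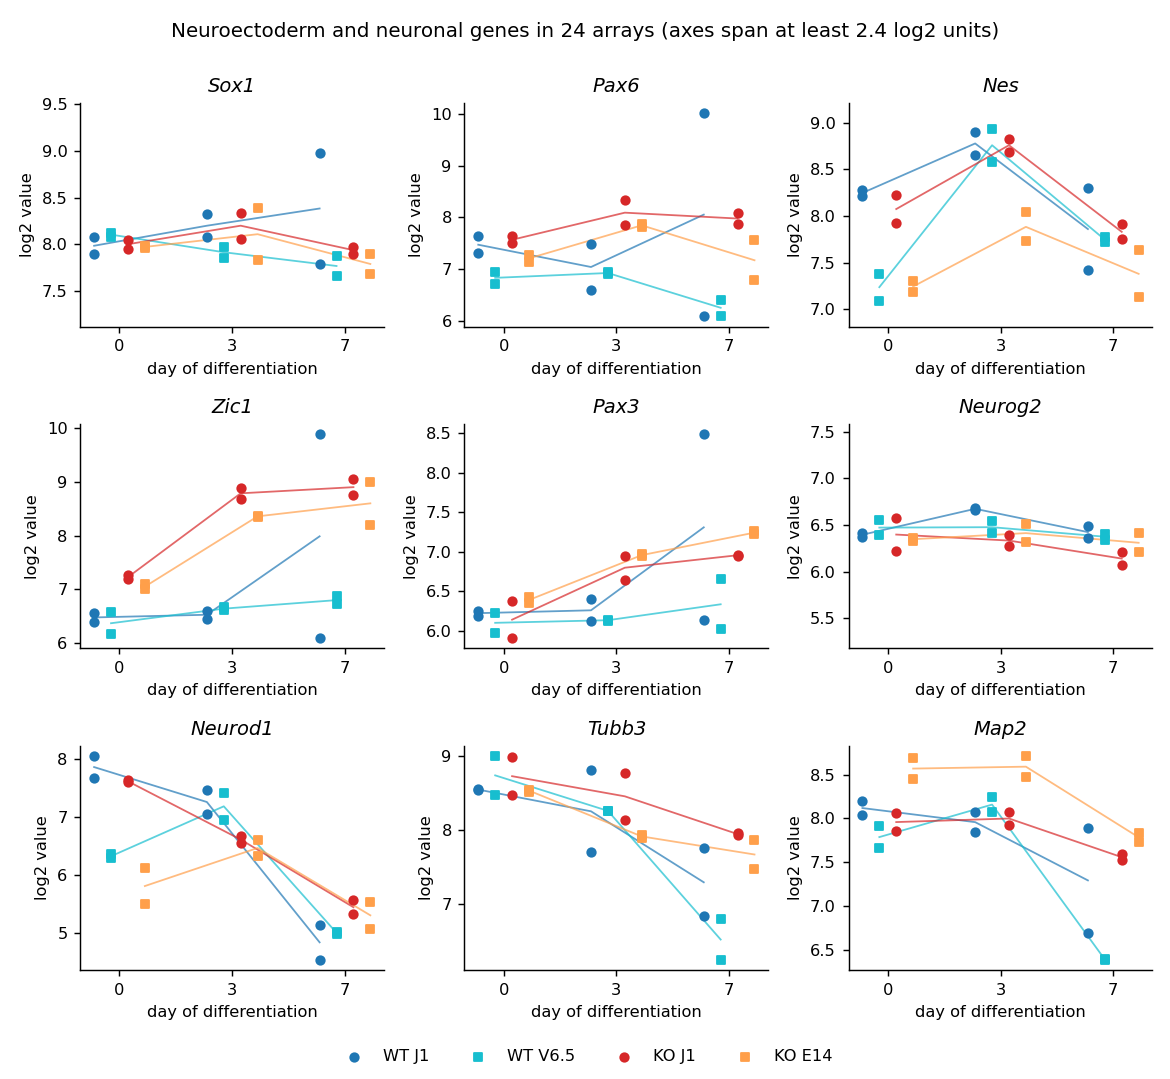
Log2 level of each of the 9 genes (vertical axes) against the day of differentiation (horizontal axes) in all 24 arrays. Points are single arrays, set side by side within a day, and lines join the means of the 2 arrays of a line and genotype. In Zic1 the KO arrays of day 3 lie between 8.35 and 8.88 and the WT arrays between 6.46 and 6.67, and on day 7 replicate 1 of WT J1 stands at 9.88.

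Promoter windows of 300 bases (250 before to 50 after the annotated start) were available in RefSeq, build GRCm38.p6, for 8 of the 9 genes, with 9 windows because Pax6 had 2 starts. The windows of Zic1 at chr9:91365719-91366018 on the minus strand and of the first Pax6 start at chr2:105668646-105668945 on the plus strand are shown because both genes read above WT in all KO arrays of day 3. They are written 5′ to 3′ with each CpG dinucleotide, a feature of promoters that Polycomb complexes occupy, in capitals.
Zic1: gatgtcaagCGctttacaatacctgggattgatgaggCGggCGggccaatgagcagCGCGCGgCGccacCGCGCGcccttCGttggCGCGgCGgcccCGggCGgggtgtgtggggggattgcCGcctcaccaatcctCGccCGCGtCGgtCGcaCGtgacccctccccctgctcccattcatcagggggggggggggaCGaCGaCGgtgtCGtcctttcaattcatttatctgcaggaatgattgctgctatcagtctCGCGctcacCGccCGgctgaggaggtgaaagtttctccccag
Pax6: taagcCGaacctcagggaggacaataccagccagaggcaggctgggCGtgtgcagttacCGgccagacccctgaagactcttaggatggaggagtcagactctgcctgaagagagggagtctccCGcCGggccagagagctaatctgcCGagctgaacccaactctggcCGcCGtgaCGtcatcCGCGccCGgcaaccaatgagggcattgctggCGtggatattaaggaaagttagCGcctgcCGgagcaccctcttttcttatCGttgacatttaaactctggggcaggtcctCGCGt
The Zic1 window held 31 CpGs and the Pax6 window 18, against a median of 7 (quartiles 3 and 20) over the 32851 windows of the table. Over the 9 windows the median was 26 CpGs and 65.3% G and C, against 52.7% over all windows, and the counts ran from 10 in Neurog2 to 37 in Sox1 and Map2. None of the 9 windows held the letters TATAAA on either strand, which 13.6% of all windows held. The E-box letters CAGATG (17.2% of all windows) and CAGCTG (16.3%) were likewise in none. These data hold no measurement of methylation or of binding at these windows.

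**Figure D2:**
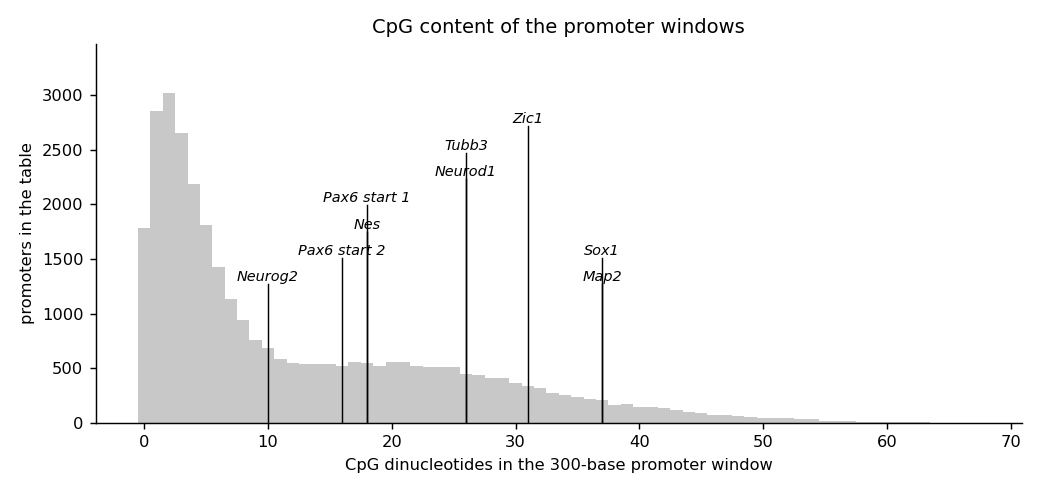
Histogram of the number of CpG dinucleotides (horizontal axis) in the 32851 promoter windows of 300 bases, with the number of windows on the vertical axis. Vertical lines mark the 9 windows of the genes described here, whose heights carry no value, from 10 CpGs in Neurog2 to 37 in Sox1 and Map2.

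Neurod1, Tubb3 and Map2, the later neuronal genes, were measured at their highest in undifferentiated cells or on day 3 and fell as WT cells differentiated. Neurod1, a proneural transcription factor, started in WT at 8.05 and 7.67 (J1) and at 6.36 and 6.28 (V6.5), and on day 3 stood at 7.05 and 7.47 (J1) and at 6.95 and 7.41 (V6.5). By day 7 J1 WT read 5.13 and 4.53 and V6.5 WT 4.98 and 5.01, below every WT array of the earlier days. In KO the E14 arrays went from 6.12 and 5.49 over 6.33 and 6.59 to 5.07 and 5.53 on days 0, 3 and 7. J1 KO went from 7.60 and 7.63 over 6.54 and 6.67 to 5.31 and 5.56. Neurod1 fell from day 0 to day 7 by 2.18 in WT (SE 0.35, adjusted p = 1.9e-05; -2.21 without replicate 1 of J1) and by 1.34 in KO (SE 0.35, adjusted p = 0.0085). On day 3 all KO arrays lay below all WT arrays, with a difference of -0.69 (SE 0.41, adjusted p = 0.54).

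Tubb3, which encodes the beta III tubulin of neurons, went in J1 WT from 8.56 and 8.55 over 7.70 and 8.81 to 7.76 and 6.83 on days 0, 3 and 7, and in V6.5 WT from 9.0 and 8.48 over 8.26 and 8.26 to 6.24 and 6.79. The same days gave 8.52 and 8.55, then 7.90 and 7.94, then 7.47 and 7.87 for E14 KO. For J1 KO they gave 8.48 and 8.99, then 8.14 and 8.77, then 7.96 and 7.94. In both genotypes every array of day 7 lay below every array of day 0. This held for 2 of the 9 genes in WT (Neurod1 and Tubb3, beside 15.5% of all genes) and for 2 in KO (Tubb3 and Map2, beside 8.94%). Tubb3 fell by 1.74 in WT (SE 0.24, adjusted p = 3.1e-06; -2.02 without replicate 1 of J1), and in KO the change was -0.83 (SE 0.24, adjusted p = 0.019, under 2-fold). KO exceeded WT on day 7 by 0.90 (SE 0.28, adjusted p = 0.030, under 2-fold), by 1.19 (SE 0.25, adjusted p = 0.0015) without replicate 1 of WT J1 and by 0.86 (adjusted p = 0.061) without replicate 2.

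Map2, which encodes a microtubule-associated protein of dendrites, went from 8.04 and 8.20 on day 0 to 7.89 and 6.69 on day 7 in J1 WT, and from 7.66 and 7.91 to 6.39 and 6.40 in V6.5 WT. For E14 KO the arrays of these days gave 8.69 and 8.45, then 7.73 and 7.84. For J1 KO they gave 7.86 and 8.06, then 7.53 and 7.59. The V6.5 WT arrays and 1 of the J1 WT arrays thus ended below all KO arrays, and the other J1 WT array above them. Day 3 values lay between 7.84 and 8.71 in all 8 arrays. Map2 fell in WT by 1.11 (SE 0.22, adjusted p = 0.00025; -1.45 without replicate 1 of J1) from day 0 to day 7, and in KO the change was -0.59 (SE 0.22). KO exceeded WT on day 7 by 0.83 (SE 0.26, adjusted p = 0.029, under 2-fold), by 1.17 (SE 0.18, adjusted p = 4.8e-05) without replicate 1 of WT J1 and by 0.74 (adjusted p = 0.071) without replicate 2.

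The windows of Neurod1, at chr2:79456587-79456886 on the minus strand, and of Tubb3, at chr8:123411303-123411602 on the plus strand, are shown because these genes had the largest falls in WT. Capitals again mark CpG, of which each window held 26.
Neurod1: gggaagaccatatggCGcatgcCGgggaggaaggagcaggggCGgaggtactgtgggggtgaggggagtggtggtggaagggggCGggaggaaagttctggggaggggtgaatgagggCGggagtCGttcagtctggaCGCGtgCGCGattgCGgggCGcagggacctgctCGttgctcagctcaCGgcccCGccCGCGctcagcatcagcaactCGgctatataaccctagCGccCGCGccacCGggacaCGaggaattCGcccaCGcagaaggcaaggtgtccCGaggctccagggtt
Tubb3: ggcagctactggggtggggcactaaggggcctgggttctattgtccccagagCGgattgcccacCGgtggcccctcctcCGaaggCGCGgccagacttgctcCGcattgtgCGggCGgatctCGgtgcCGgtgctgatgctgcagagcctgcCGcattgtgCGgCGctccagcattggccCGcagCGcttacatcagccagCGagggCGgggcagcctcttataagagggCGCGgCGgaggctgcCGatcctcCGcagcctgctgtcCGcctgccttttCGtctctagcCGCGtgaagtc
Of all windows in the table, 83.1% held fewer CpGs than these.

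Nes, the gene of nestin, was the gene that rose in WT on day 3. J1 WT went from 8.21 and 8.28 on day 0 to 8.90 and 8.66 on day 3, and V6.5 WT from 7.09 and 7.38 to 8.93 and 8.58, while WT arrays of day 7 lay at 7.42 to 8.29. All WT arrays of day 3 lay above all WT arrays of day 0 (as in 7.14% of all genes) and of day 7, and the rise from day 0 was 1.03 (SE 0.23, adjusted p = 0.0043). J1 KO moved alike, from 7.92 and 8.22 to 8.69 and 8.83, and then to 7.75 and 7.91. E14 KO read 7.30 and 7.19, then 7.73 and 8.04, then 7.13 and 7.63, below J1 KO on each day. Between genotypes Nes overlapped on all 3 days, and the difference on day 3 was -0.45.

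Sox1, the earliest neuroectoderm marker of the 9, lay between 7.66 and 8.38 in 23 arrays, and replicate 1 of WT J1 on day 7 read 8.97. Its group means spanned 0.29, from 7.86 ± 0.13 (SD, n = 4) in KO on day 7 to 8.15 ± 0.26 in KO on day 3. Neurog2, the proneural gene upstream of Neurod1 in cortical neurogenesis, had the smallest range of all, 6.07 to 6.68 over the 24 arrays. All its values lay below 7.05, the median over all probe sets and arrays, and may lie near background, where differences are compressed. The same limit applies to Neurod1 on day 7 (4.53 to 5.56), to Zic1 in WT on days 0 and 3 (6.17 to 6.67) and to Pax3 on these days (5.90 to 6.97). It also applies to Zic1, Pax3, Pax6, Tubb3 and Map2 in the 3 WT arrays of day 7 other than replicate 1 of J1 (6.02 to 6.88). The KO minus WT differences of Sox1 and Neurog2 lay between -0.21 and 0.10, and none was called.

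Counted over the 9 genes, none was called between KO and WT on day 0 or on day 7 (beside 0.552% and 4.36% of all genes), and 1 on day 3. Without replicate 1 of WT J1 on day 7, 4 of the 9 (Zic1, Pax6, Tubb3 and Map2) were higher in KO on day 7, beside 3.35% of all genes that were called higher. Without replicate 2 in its place none of the 9 was called on day 7, beside 4.35% of all genes. The day 7 calls thus rest on which WT J1 array is kept. The median KO minus WT difference of the 9 genes on day 7 was 0.42, and 0.83 without replicate 1 of WT J1, where the median over all genes was -0.04 and -0.02. Against the remaining 3 WT arrays of day 7, all KO arrays lay above all WT arrays in 6 of the 9 genes, beside 14% of all genes (2788 of 19938), and Sox1, Nes and Neurog2 overlapped. The array left out read above these 3 WT arrays in all 9 genes but in 34.3% of all genes. Leaving it out therefore lowered the WT values of the 9 genes more often than those of other genes, and the shares are not on equal terms. With all 4 WT arrays no gene of the 9 was free of overlap on day 7, where KO lay above WT in 9.70% of all genes. On day 0 the KO arrays lay above all WT arrays in 1 gene (Zic1, beside 6.33% of all genes). On day 3 they did so in 3 genes (Zic1, Pax6 and Pax3, beside 6.12%) and lay below in 1 (Neurod1, beside 4.30%).

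**Figure D3:**
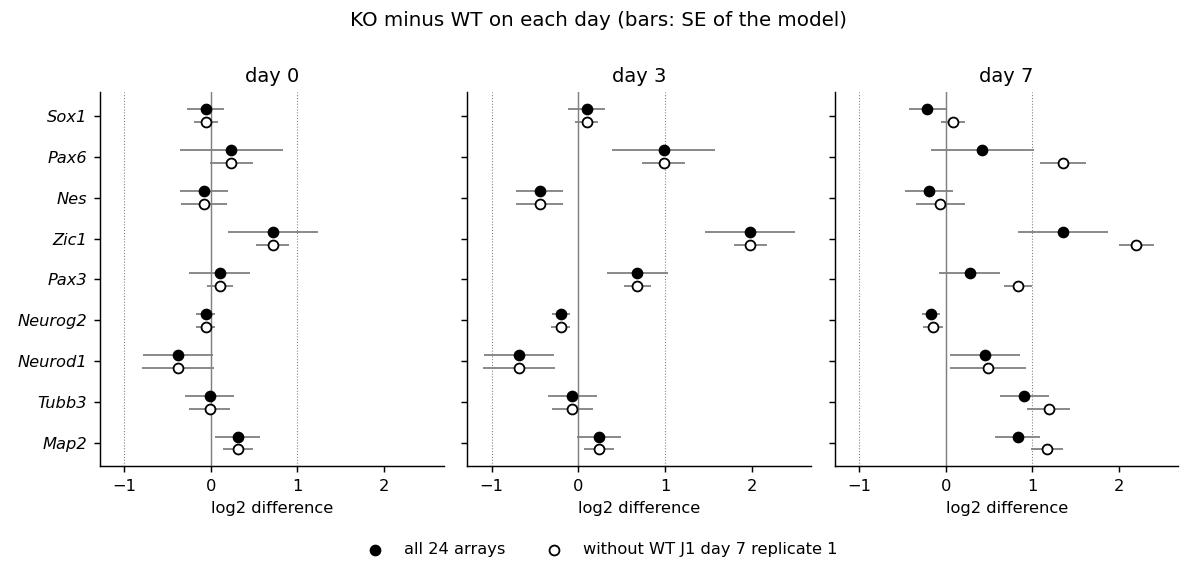
KO minus WT difference in log2 units (horizontal axes) of the 9 genes on days 0, 3 and 7, with bars of the model SE. Filled points are from all 24 arrays and open points from the model without replicate 1 of WT J1 on day 7, and dotted lines mark 2-fold. On day 7 the open points of Zic1, Pax6, Tubb3 and Map2 lie beyond 2-fold, at 1.17 to 2.20, and of the filled points that of Zic1 at 1.35.

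Shares of all genes in this paragraph are for calls in either direction unless a direction is given. Over time in WT, 1 of the 9 genes was called from day 0 to day 3 (Nes, upward, beside 2.04% of all genes and 0.958% upward). From day 0 to day 7 it was 3 (Neurod1, Tubb3 and Map2, all downward, beside 8.98%, and 3.89% downward). These 3 were also called without replicate 1 of WT J1 (beside 10.3%, and 4.38% downward). The same 3 fell from day 3 to day 7 (-2.31, -1.35 and -1.22, beside 6.23%, and 2.45% downward). Nes fell as well between these days, by 1.10 (adjusted p = 0.00087), without replicate 1 of WT J1, which made 4 of the 9 (beside 7.70%, and 3.01% downward). Without replicate 2 it was Zic1 that was called beside the 3, as rising by 1.31 (adjusted p = 0.018). In KO none was called from day 0 to day 3 (beside 1.17%), where Zic1 changed by 1.43 (adjusted p = 0.055, and 3.5e-06 and called without replicate 1 of WT J1 on day 7, beside 1.24%). From day 0 to day 7 it was 2 (Zic1 upward, Neurod1 downward, beside 2.47%), and from day 3 to day 7 Neurod1 alone (-1.17, beside 2.00%). The difference between the genotypes in the change from day 0 to day 7 was called for none of the 9 genes (beside 3.38%), nor was that from day 0 to day 3 (beside 0.0502%). It was called without replicate 1 of WT J1 for Zic1 (1.49, adjusted p = 9e-05), Tubb3 (1.20, adjusted p = 0.0066) and Pax6 (1.12, adjusted p = 0.015), beside 4.83% of all genes. From day 0 to day 3 it was then called for Zic1 (1.27, adjusted p = 0.015, beside 0.0752%). Leaving out replicate 2 of WT J1 in its place, Zic1 was called as rising in WT, by 1.47 (adjusted p = 0.0061), which it was not in the model of all arrays (0.97, adjusted p = 0.094).

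**Figure D4:**
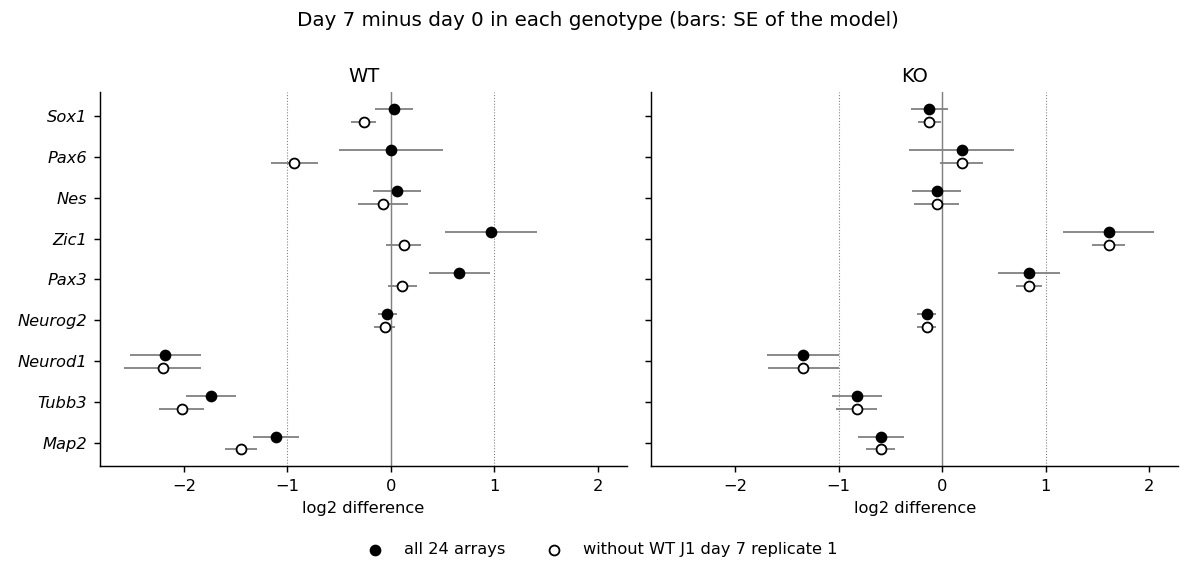
Change from day 0 to day 7 in log2 units (horizontal axes) of the 9 genes in WT and in KO, with bars of the model SE, from all 24 arrays (filled) and without replicate 1 of WT J1 on day 7 (open). In both genotypes Neurod1, Tubb3 and Map2 lie left of 0, and in KO Zic1 lies at 1.61.

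Within the J1 line, which carries both genotypes, no gene of the 9 was called between KO and WT on day 0, 3 or 7 (beside 0.456%, 1.00% and 4.29% of all genes), with a Zic1 difference of 2.26 (adjusted p = 0.084) on day 3. Without replicate 1 of WT J1 on day 7, Zic1 (2.26, adjusted p = 1.1e-06) and Pax6 (1.05, adjusted p = 0.018) were higher in J1 KO on day 3, beside 1.30% of all genes called. On day 7 the same fit, with a single J1 WT array, gave Zic1 2.80 (adjusted p = 5.9e-08), Pax6 1.89 (adjusted p = 0.00014) and Tubb3 1.11 (adjusted p = 0.024), and the lone array was taken to vary like the other groups (beside 8.28% of all genes). Lines of the same genotype also differed. Neurod1 was lower in E14 KO than in J1 KO on day 0 (-1.81, SE 0.24, adjusted p = 0.00089, beside 0.396% of all genes in either direction). It was also lower in V6.5 WT than in J1 WT on that day (-1.54, adjusted p = 0.0011), as was Nes (-1.01, adjusted p = 0.020, beside 0.953% of all genes in either direction). The 4 J1 arrays of day 0 read 7.60 to 8.05 in Neurod1 and the other 4 read 5.49 to 6.36, whatever the genotype. No gene of the 9 was called between lines of a genotype on day 3 or day 7 in the model of all arrays, where 0.0451% and 0.998% of all genes were called between the KO lines and 0.637% and 0.993% between the WT lines. Nor was any called between the WT lines on day 7 without replicate 1 of J1 (beside 2.94%).

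Other genes of the neural programme were counted from lists of progenitor, neuronal and neural crest genes that held none of the 9. In KO against WT on day 7, 8 of 53 measured neuronal genes were higher and none was lower, beside 3.08% of all genes higher and 1.28% lower, with a list median of 0.15 against -0.04 over all genes. They were the transcription factor genes Ebf1 (2.23, SE 0.29), Ebf2 (2.10) and Ebf3 (1.33), the neurofilament genes Nefl (1.79, SE 0.30), Ina (1.58) and Nefh (1.32), the stathmin gene Stmn2 (1.75) and the RNA-binding protein gene Elavl2 (1.12). The count was 9 of 53 without replicate 1 of WT J1, beside 3.35% of all genes. With either array of that pair left out, Ebf1, Ebf2, Nefl and Stmn2 were again called. Ina, Stmn2, Nefl and Nefh fell in WT from day 0 to day 7, with changes of -3.20, -2.51, -2.25 and -2.03, as did 9 of the 53 in all (beside 3.89% of all genes), and 9 also without replicate 1 of J1. On day 3 Ebf1 alone of this list was higher in KO (1.14), and on day 0 no gene of it was called.

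Of 46 neural progenitor genes, 2 were higher in KO on day 7 (Zic5, 1.44, and En2, 1.29) and 1 was lower (Cdh2, the gene of N-cadherin, -1.23), shares near those of all genes (3.08% and 1.28%). The count was 9 higher and none lower without replicate 1 of WT J1 (beside 3.35% and 2.08% of all genes), among them Otx2 (2.55, SE 0.33), Zic2 (2.02), Zic5 (2.01) and Sfrp1 (1.62). In that array 22 of the 46 genes read at least 2-fold above replicate 2 and none 2-fold below, for example Otx2 at 11.58 against 6.82 and Zic2 at 10.93 against 7.01, where 2.09% of all genes read 2-fold above. Sox2, an HMG box factor of both ESCs and neural progenitors, was higher in KO on day 7 (2.45, SE 0.41) and was also at 10.84 in that array against 7.97 in the other. En2, a homeobox gene of the midbrain and hindbrain, was higher in KO on all 3 days, by 1.32, 1.23 and 1.29. Zic5 and Zic2 did not rise in KO from day 0 to day 7, with changes of -0.40 and -0.12 (not called). In WT they changed by -2.71 and -1.60, both called. Zic4, the close relative of Zic1, differed by -0.16, 0.14 and 0.03 on days 0, 3 and 7.

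Of 19 neural crest genes, Tfap2a (1.44, SE 0.18) and Crabp1 (1.30) were higher in KO on day 3, beside 0.667% of all genes. On day 7 there were 3 higher and 5 lower (beside 3.08% and 1.28%), and 4 higher, with Tfap2a, and 5 lower without replicate 1 of WT J1 (beside 3.35% and 2.08%). With all arrays those higher were Erbb3 (1.32), Foxd3 (1.21) and Crabp1 (1.19), and those lower were Zeb2 (-1.84), Msx2 (-1.39), Ednrb (-1.39), Msx1 (-1.32) and Snai2 (-1.16), genes that other mesenchymal cells also use. All 5 of these rose in WT from day 0 to day 7, by 1.86 to 3.26. Among the 10 measured genes of the REST repressor complex, which silences neuronal genes outside neurons, none was called between the genotypes on any of the 3 days, with or without replicate 1 of WT J1. With all arrays the KO minus WT difference on day 7 was 0.51 for Rest (SE 0.12, limma adjusted p = 0.0043) and -0.70 for Rcor3 (adjusted p = 0.026), both under 2-fold. Rest itself fell in WT by 1.05 from day 0 to day 7 and changed in KO by -0.33.

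Markers of other cell types moved with genotype and differed between the 2 WT J1 arrays of day 7. Their part in the results above was not tested. On day 3, when Zic1 was called, 3 of 6 ESC markers were higher in KO (Zfp42 by 2.26, Dppa5a by 1.61 and Esrrb by 1.59, beside 0.667% of all genes). Their mean ran from 11.31 to 11.81 in KO and from 9.84 to 10.89 in WT on that day. On day 7 all 6 ESC markers were higher in KO (beside 3.08%), and all 4 primitive blood markers, 2 of 4 cardiac and 3 of 7 fibroblast markers were lower (beside 1.28%). These counts were the same without replicate 1 of WT J1 except for the fibroblast markers, of which 5 of 7 were then lower (beside 2.08%). Summed as means over the list, blood markers ran from 10.94 to 12.21 in WT and from 5.67 to 6.54 in KO on day 7, and fibroblast markers from 7.62 to 9.97 in WT and from 7.70 to 8.41 in KO. In replicate 1 of WT J1, 3 of 4 blood, 3 of 4 cardiac and 5 of 7 fibroblast markers read at least 2-fold below replicate 2, for example Lum at 5.60 against 10.34. Of 5 endoderm markers, 2 were as far below (Ttr at 8.54 against 12.61 and Afp at 6.22 against 8.44). Of 6 ESC markers, 3 read at least 2-fold above replicate 2 (Sox2, Nanog at 9.67 against 8.22 and Pou5f1 at 8.98 against 7.95) and 1 below (Dppa5a at 8.90 against 10.19). Hbb-bh1, an embryonic globin gene, read 12.37 and 13.29 in these arrays. On day 0 fibroblast markers ran from 7.83 to 8.98 in KO and from 7.34 to 7.62 in WT, without overlap, and on day 3 from 7.00 to 7.23 and from 6.81 to 7.11. The mean of 6 markers of skeletal muscle and its progenitors, which share Pax3, lay between 6.51 and 6.76 in all 24 arrays, and none was called between genotypes with all arrays. Des and Meox1 of this list had opposite differences on day 7, -0.86 (adjusted p = 0.040) and 0.99 (adjusted p = 0.0029), and without replicate 1 of WT J1 Des was called lower (-1.11) and Meox1 higher (1.08) in KO. The 4 measured glia markers were not called between genotypes with or without that array. The mean of the 4 measured markers of the endocrine pancreas, which shares Pax6 and Neurod1, was above WT in KO without overlap on each day. It ran from 7.34 to 7.41 in KO and from 7.09 to 7.23 in WT on day 0. On day 3 the ranges were 7.14 to 7.38 and 6.80 to 7.10, and on day 7 they were 7.34 to 7.67 and 6.98 to 7.28. None of these markers was called between genotypes with all arrays.

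**Figure D5:**
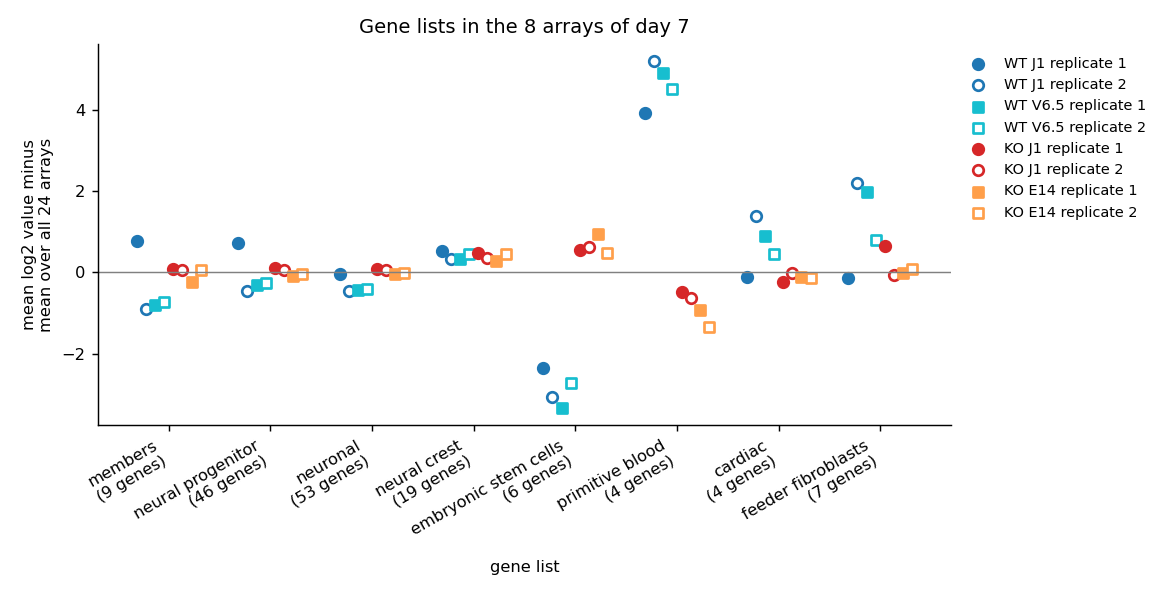
Mean log2 level of each gene list in each of the 8 arrays of day 7, minus the mean of that list over all 24 arrays (vertical axis), with lists along the horizontal axis. Replicate 1 of WT J1 stands above all other arrays of day 7 in the 9 genes and in the neural progenitor list, and below the other 3 WT arrays in the blood, cardiac and fibroblast lists.

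The genes whose means over the 12 combinations of line, genotype and day followed each of the 9 most closely were named by Pearson correlation. This is a description of 12 points that share lines and arrays, among them replicate 1 of WT J1 on day 7. Zic1 was most alike to Alx1 (r = 0.93, and 0.93 without that array) and Tfap2a (0.92 and 0.89), Pax3 to Pde10a (0.92 and 0.83) and Dach1 (0.91 and 0.88), and Pax6 to Lfng (0.87 and 0.88). Neurod1 followed Ell3 (0.95 and 0.95), Tubb3 followed Plekhm1 (0.97 and 0.95), Map2 followed Txlng (0.95) and Nes followed Npy1r (0.92 and 0.84). Sox1 was most alike to Col5a3, where r dropped from 0.96 to 0.45 without that array. Neurog2, whose values may lie near background, was most alike to H2bc18 (0.93 and 0.87) and Tas2r136 (0.93 and 0.93). An r of this size was thus also reached by a gene with little range. Among the 9 genes themselves the closest pairs were Zic1 and Pax3 (0.86 and 0.92) and Tubb3 and Map2 (0.77 and 0.81).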

How the data were processed

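Total RNA of 24 samples was hybridised to Affymetrix Mouse Gene ST arrays. The table deposited by the authors holds log2 values, 1 per probe set. The submitters' processing notes name Affymetrix Power Tools and RMA, without versions, and the genome build is not given in the sources used here. That the scale is log2 was judged from the range of 2.08 to 14.4. RMA quantile-normalizes arrays, which removes changes of total RNA per cell, and values near background compress differences. Arrays have no read depth, and their number limits the precision.

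Of 35556 probe sets, 21789 had 1 symbol, 1621 several and 12146 were not listed in the annotation table. A gene was represented by its probe set of highest mean, without a filter on low values. limma 3.58.1 (statmod 1.5.0, R 4.3.3) fitted 6 genotype-by-day means with the line of a genotype as a random block (correlation 0.161), and 12 line-by-genotype-by-day means for comparisons within or between lines. P-values were adjusted by Benjamini-Hochberg over 19938 genes. Words such as higher and rose are kept for genes called in that test. SE is that of the model, and intervals are 95% and unadjusted. The fit was tested on simulated data. The 9 genes, the lists and the tests were chosen with earlier results of these data known. Named genes are the 9, called list genes with the largest differences, and the 3 genes most alike to each, of which the text gives up to 2. Alternatives covered the block, averaging of arrays, normalization, filter, fold minimum, prior, lines and single arrays left out. The full fits without each WT J1 array of day 7 were added after the data were seen. Promoter sequences are RefSeq's, build GRCm38.p6.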

Additional observations from a re-analysis of the deposited data

Results flagged for a closer look

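In 8 of the 54 groups of 4 arrays (9 genes, 2 genotypes, 3 days) 1 array lay far from the other 3 by Dixon's criterion. Chance alone meets it in about 1 of 20 groups of 4 independent values. Here each group held 2 lines with 2 arrays each and the genes shared arrays, so that rate need not hold. In WT on day 7, replicate 1 of J1 was far above the rest in Sox1 (8.97, others 7.66 to 7.87) and in Pax6 (10.02, others 6.09 to 6.41). Replicate 2 of J1 KO was the far array in 4 groups: Pax6 on day 3 (8.34, others 7.82 to 7.87), Pax3 on day 0 (5.90, others 6.35 to 6.42), Pax3 on day 3 (6.64, others 6.95 to 6.97) and Tubb3 on day 0 (8.99, others 8.48 to 8.55). Replicate 2 of J1 WT read 6.40 in Pax3 on day 3, where the others read 6.12 to 6.14. Replicate 1 of V6.5 WT read 9.0 in Tubb3 on day 0, where the others read 8.48 to 8.56. Outside WT day 7 these gaps were 0.26 to 0.47 on the log2 scale. Zic1 and Pax3 in WT on day 7 did not meet the criterion, although the same array read 9.88 and 8.49 there.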

How the results depend on the processing

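The number of the 9 genes called between KO and WT on day 3, 1 in the main model, was 0 with a replicate block, a filter on low values, quantile normalization, a trend and robust prior, and without the KO E14, KO J1 or WT V6.5 arrays, and it was 2 without the WT J1 arrays. On day 7, 0 in the main model, it was 1 with no block for the line or with averaged arrays (Zic1 in both), 2 with no fold minimum (Map2 and Tubb3) and 4 without the WT J1 arrays. From day 0 to day 3 the count in WT, 1, was 0 with averaged arrays, with quantile normalization and without WT V6.5, and the count in KO, 0, was 1 with averaged arrays, with the filter and without WT J1. From day 0 to day 7 in KO, 2 in the main model, it was 1 with averaged arrays or without KO E14 and 0 without KO J1, and the difference between genotypes in that change, 0, was 2 without WT J1. Leaving out 1 array at a time gave 0 to 1 on day 3 (0 without any of the 8 arrays of that day), 0 to 4 on day 7, 0 to 1 for WT from day 0 to day 3 (0 without either V6.5 array of day 0 or replicate 1 of V6.5 on day 3), 1 to 2 for KO from day 0 to day 7 (1 without replicate 2 of E14 on day 7), and 0 to 3 for the difference between genotypes. Without replicate 1 of WT J1 on day 7 the counts were 4 for KO against WT on day 7, 3 for the difference in the change to day 7, 1 for that to day 3, and 2 and 3 within J1 on days 3 and 7. The counts of day 0 and of WT from day 0 to day 7 stayed within 1.5 times the main count. Of 564 single-gene values under the alternatives, 536 kept direction and side of the threshold or were not called either way, 13 passed it anew, 15 lost it and none reversed a call. All 15 lost calls were Zic1 on day 3, the only call between KO and WT in the main model. Zic1 on day 3 had 21 alternatives and kept its call in 6 of them. The other values were not called in the main model, so they had no call to lose.

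The labels do not say what a replicate number shares. Over 66 pairs of groups, deviations of same-numbered arrays correlated at -0.40 to 0.47, and 30 were over 0.1. No value for arrays known to be unpaired was at hand, so this cannot settle whether same-numbered arrays belong together. With the replicate block Zic1 on day 3 had a limma adjusted p of 0.054, and the count on day 3 was 0. The filter kept 13047 genes and 8 of the 9, without Neurog2.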
